A study of Mus musculus with 22 samples.

Results

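Primary mammary cancers of the mouse were each grown by a pair of culture methods, and the resulting transcriptomes were compared. The data compared were 4 of the 22 libraries of the series: the CRC cultures of cancer 1 and cancer 2 against the EpiC cultures of the same 2 cancers. CRC stands for conditional reprogramming of cells and EpiC, in the labels, for culture in a medium optimised for mammary cells. The libraries were chosen by their labels, not by any measured value. The table that holds them also has the 2 primary cancers themselves, which gave another group for the spread and a reference level for each gene. All 6 libraries came from nulliparous C57Bl/6 females with 1 conditional Brca1 allele (Brca1fl11/WT), Cre recombinase under the MMTV promoter, which is active mainly in mammary epithelium, and 1 mutant Trp53 allele. These alleles were therefore shared by every group, and there was no culture of wild-type cells in the comparison. The labels do not state age, passage, culture time or the making of any feeder layer. The titles of both cancers begin with the same number, so that both may come from 1 animal. Whether libraries came from separate cultures is not stated, and p-values measure only the spread between these libraries.

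In conditional reprogramming, epithelial cells are usually grown on irradiated fibroblasts with an inhibitor of the kinase ROCK, and they are known to divide for long periods while keeping the ability to differentiate. Mammary epithelium has an inner luminal layer, marked by the keratins Krt8 and Krt18, and an outer basal layer, marked by Krt5, Krt14 and the transcription factor Trp63. Mammary cells in culture can also take on a squamous programme, the cornifying state of epidermis. Acute-phase proteins are secreted defence proteins, best known from the liver, whose genes are switched on during inflammation by transcription factors of the C/EBP, STAT and NF-kB families, and several of them are made by mammary epithelium during involution or infection.

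Values are FPKM, fragment counts divided by transcript length and by library size, and pairs of values are given in the order culture of cancer 1, culture of cancer 2. Differences are on the log2(FPKM + 1) scale, CRC minus EpiC. The CRC culture of cancer 2 stood apart. Its FPKM values summed to 1615930 against 607519 to 710511 in the other 5 libraries, ribosomal protein genes made up 41.6% of its sum against 15.03% to 23.3%, and 10658 genes reached 1 FPKM in it against 11088 to 12408. Its difference from EpiC depended on transcript length. In genes with transcripts of up to 600 bases the median log2 difference was 0.78 in cancer 2 and 0.07 in cancer 1, and in genes over 6000 bases it was -0.78 and -0.09. Values without CRC culture 2 are therefore given beside some of the gene lists, not all. They set CRC culture 1 against both EpiC cultures, so the pairing by cancer is lost. In that setting 38.3% of all tested genes lay above both EpiC cultures and 22.8% below, and the median difference was 0.10. Rescaling each library to a common sum of FPKM moved the median of all genes from -0.08 to -0.60, and rescaling by median ratios moved it to 0.02.

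**Figure D1:**
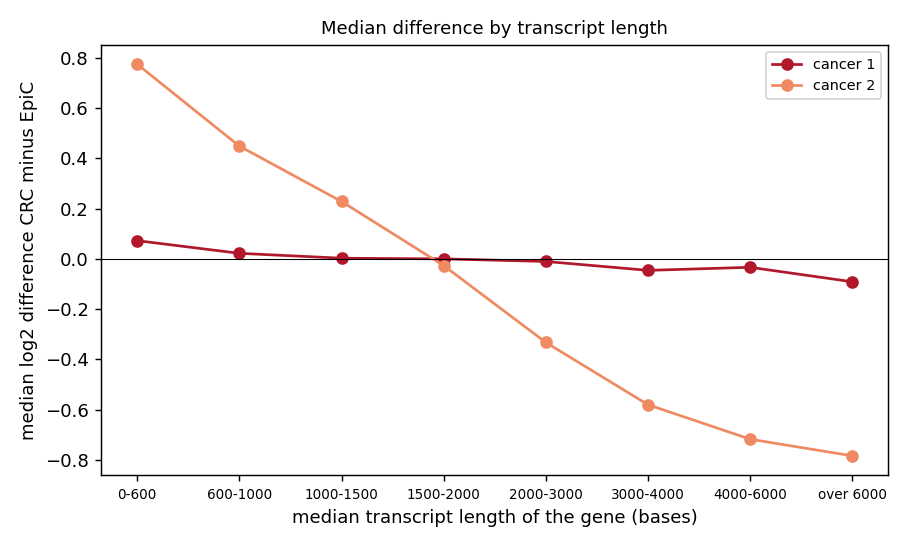
Median log2 difference between the CRC and the EpiC culture, for genes binned by the median length of their transcripts (x axis, bases), in each cancer (y axis, log2 of FPKM + 1). The cancer 2 line falls from 0.78 for the shortest genes to -0.78 for the longest, while the cancer 1 line stays between 0.07 and -0.09.

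The cultures carried epithelial transcripts in every library. Epcam, an epithelial adhesion molecule, stood at 376 and 337 FPKM in the CRC cultures and 283 and 409 in the EpiC cultures, and Krt18 at 363 and 3513 in CRC and 648 and 693 in EpiC. Macrophage transcripts were abundant in the primary cancers and low in all 4 cultures. The summed level of 17 macrophage genes was 1249.7 and 1816 FPKM in the cancers, 14.6 and 11 in the CRC cultures and 15.3 and 37.5 in the EpiC cultures, and Lyz2, the macrophage lysozyme, was at 365 and 703 in the cancers, 0.763 and 1.07 in CRC and 0.346 and 0.39 in EpiC. No gene of the lymphocyte list was high enough to be tested, in the cancers or the cultures, and none exceeded 2.55 FPKM in any library. The 14 endothelial genes summed to 103 and 104 in the cancers, 15.7 and 25.5 in CRC and 14.8 and 5.48 in EpiC. Pecam1 and Emcn, which define endothelium, stood at or below 0.202 FPKM in every culture. Of the most abundant members, the secreted factor Egfl7 stood at 9.08 and 8.53 in the cancers, 6.07 and 22 in CRC and 2.67 and 3.63 in EpiC, and the TGF-beta co-receptor Eng at 20.9 and 8.15 in the cancers, 7.4 and 0.568 in CRC and 7.54 and 0.574 in EpiC. Egfl7 in CRC culture 2 was thus above both cancers. Between the methods the genes tied to the genotype overlapped. Brca1, whose conditional allele all libraries carried, stood at 7.51 and 1.56 FPKM in CRC and 8.36 and 7.24 in EpiC. The groups overlapped, while within each cancer CRC was the lower, by 0.14 in cancer 1 and 1.69 in cancer 2 on the log2 scale. Trp53 stood at 15 and 21.9 in CRC and 18.4 and 19.7 in EpiC, also overlapping. A level over the whole gene does not show whether the conditional exon was lost. The oestrogen receptor gene Esr1 stood at 0.923 and 0.0581 in CRC and 2.99 and 0.795 in EpiC, overlapping between groups and lower in CRC in each cancer. The receptor tyrosine kinase gene Erbb2 stood at 15 and 14.1 in CRC and 9.21 and 18.4 in EpiC, and overlapped, and the progesterone receptor gene Pgr was at or below 0.137 FPKM in all 6 libraries and was not tested.

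Across all 12266 genes tested, 1 gene was called in CRC against EpiC by limma at a Benjamini-Hochberg adjusted p under 0.05 (0.00815% of genes), and it was lower in CRC. Without adjustment 200 genes had a p under 0.05 (1.63%), of which 121 were higher in CRC (0.986%) and 79 lower (0.644%). In 1773 genes both CRC cultures lay above both EpiC cultures (14.5%), and in 1438 both lay below (11.7%). These shares are the background for the counts of list members given as above or below, save those without CRC culture 2, whose background is 38.3% above and 22.8% below. With each library rescaled to the same sum these counts were 670 above (5.46%) and 2550 below (20.8%). The difference was higher in CRC in both cancers for 2821 genes (23%) and lower in both for 3845 (31.3%), and it was past 2-fold in both cancers for 215 higher (1.75%) and 186 lower (1.52%). With 2 libraries in each group an exact permutation test of a single gene cannot give a p under 0.333, so the test rests on the spread pooled by limma over 3 residual degrees of freedom.

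The pairs of cultures differed in how far the methods diverged. No method was repeated within a cancer, and the pair of cancer 2 holds the unusual CRC culture 2. A difference between the cancers and a trait of that library therefore cannot be told apart. The log2 difference between CRC and EpiC had an SD over genes of 0.970 in cancer 1 and 1.35 in cancer 2, and 1409 and 4680 genes were past 2-fold. The CRC cultures differed from each other (SD 1.503) by more than the EpiC cultures did (SD 0.941). The correlation over genes of log2(FPKM + 1) was 0.793 between the CRC cultures, 0.9002 between the EpiC cultures, 0.893 between the cultures of cancer 1 and 0.837 between those of cancer 2. CRC culture 1 was closer to EpiC culture 2, at 0.905, than to the other CRC culture. The differences in cancer 1 and in cancer 2 correlated at 0.114 over genes, which are not independent replicates.

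**Figure D2:**
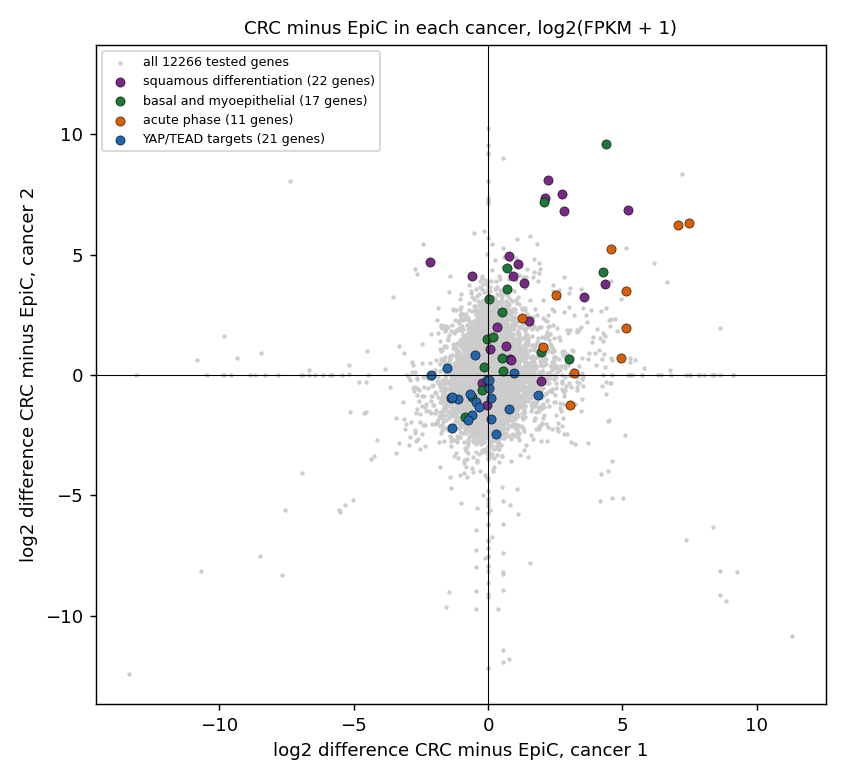
Log2 difference between CRC and EpiC in cancer 1 (x axis) against that in cancer 2 (y axis), each point 1 of 12266 tested genes, with 4 gene lists in colour. Acute-phase genes lie in the upper right, squamous and basal genes extend further on the cancer 2 axis, and the YAP/TEAD targets lie mostly at or below 0 on that axis.

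The called gene was the entry of the miRNA gene Mir186, which was listed at 0 in both CRC cultures and in both primary cancers and at 200.3 and 312 FPKM in the EpiC cultures. It thus passed the filter of a mean of 1 FPKM only through the EpiC cultures, and it had no spread in the CRC cultures or the cancers. The log2 difference was -7.97 (SE 0.55), with an adjusted p of 0.0264 by limma, and the adjusted p ranged from 0.0169 to 0.264 over the alternatives tried. With the cancer as a replicate block limma called 0 genes, with 238 at an unadjusted p under 0.05. Of the 6 libraries left out in turn, Mir186 was called only without CRC culture 1, with an adjusted p of 0.0415 by limma among 12 calls. It was not among the 4 calls without EpiC culture 2 or the 1 without cancer 2, and there were 0 calls without CRC culture 2, EpiC culture 1 or cancer 1. No fold is given against a group listed at 0. Its hairpin of 71 bases lies in an intron of Zranb2, which encodes an RNA-binding splicing protein, on chromosome 3. The host gene did not separate the groups, with 110.0 and 20.2 FPKM in CRC and 98.1 and 56.9 in EpiC. The 2 mature arms are shown because Mir186 is the only gene that passed the test. They lie at chr3:157544285-157544306 and chr3:157544324-157544345 of the forward strand (RefSeq, build GRCm38.p6; the files were aligned to mm9), with the seed, bases 2 to 8, in capitals and no other mature arm of the 1738 in the RefSeq table sharing either seed.
mmu-miR-186-5p: cAAAGAAUucuccuuuugggcu
mmu-miR-186-3p: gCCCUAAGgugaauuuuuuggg

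The entries with the next smallest p were of the same kind. Mir7679, in an intron of Slfn9, was listed at 0 in both CRC cultures and both cancers and at 1624 and 281 FPKM in EpiC (adjusted p 0.0541 by limma). Like Mir186, it passed the filter only through the EpiC cultures. Mir6990, within Esrra, was listed at 0 in both CRC cultures, at 46.1 and 47.9 in EpiC and at 45.3 and 32.8 in the cancers (adjusted p 0.0541). Mir6921, in an intron of Srebf1, was at 91.2 and 66 in the cancers, at 0 in both CRC cultures and at 186 and 48.2 in EpiC. Mir6992 stood at 19.3 and 13.9 in the cancers, at 0 in CRC and at 19.6 and 10.2 in EpiC, and the small RNA entry AF357399 at 38.5 and 55.7 in the cancers, 0 in CRC and 39.2 and 40.7 in EpiC. In each of these the CRC cultures were listed at 0 and both EpiC cultures had values of 10.2 FPKM or more. Among the 255 small RNA entries tested, 18 had an unadjusted p under 0.05 by limma, against 1.63% of all tested genes. Both CRC cultures lay below both EpiC cultures in 27 of them (10.6%), near the 11.7% of all tested genes. They lay above in 12 (4.71%, against 14.5%), and the median difference of the entries was 0. Of the 255, 11 were listed at 0 in both CRC cultures and above 0 in both EpiC cultures, and 1 showed the reverse. The share of all tested genes with such zeros was not counted. The libraries were made from polyadenylated RNA, so these values count fragments assigned to short hairpin or snoRNA entries and do not measure mature miRNAs, and a 0 in this table can be a failed estimate. With all small RNA entries left out, limma called 0 genes, with 202 at an unadjusted p under 0.05. An entry that joins Mirlet7b, Mirlet7bhg and Mirlet7c-2, the host transcript of let-7 miRNAs, went the other way, at 25.4 and 27.5 FPKM in CRC and 0.115 and 0.916 in EpiC. It passed the filter only through the CRC cultures.

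Acute-phase genes were higher in the CRC cultures of both cancers. Of the 14 genes in the list 13 were in the table and 11 were tested. Both CRC cultures lay above both EpiC cultures in 10 of the 11 (90.9%), against 14.5% of all tested genes, and none lay below. The median log2 difference of the list was 2.94, with 4.58 in cancer 1 and 2.37 in cancer 2, against -0.08 over all tested genes. No member passed the adjusted threshold by limma, and 6 had an unadjusted p under 0.05. The median transcript length of the members was 912 bases. In tested genes under 1000 bases both CRC cultures lay above both EpiC cultures in 485 of 2103, and the median difference was 0.27. CRC culture 1 alone lay above both EpiC cultures in all 11 members, against 38.3% of all tested genes, and with the length trend of each library removed the count was 10 of 11. With common sums of FPKM it was 8 of 11.

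Orosomucoids, plasma carriers of lipophilic molecules, were widely separated. Orm1 stood at 286 and 1412 FPKM in the CRC cultures and 0.611 and 16.8 in the EpiC cultures, with 1.03 and 11.3 in the cancers, a log2 difference of 6.89 (SE 1.40). Orm2 stood at 90.8 and 180.2 in CRC, 0.259 and 6.24 in EpiC and 1.36 and 3.81 in the cancers (log2 difference 5.42, SE 0.93). Both CRC cultures exceeded both EpiC cultures and both cancers for these genes. Orm3, chosen after its values were seen, passed the filter only through the CRC cultures, at 2.29 and 34.7, against 0 and 0.27 in EpiC. These genes are close copies of one another, and the labels do not state how the authors' counting split reads among them. Saa3, the serum amyloid A made by macrophages and epithelium, stood at 22.9 and 94.8 in CRC, 0 and 1.57 in EpiC and 40.7 and 18.8 in the cancers, a log2 difference of 4.90 (SE 0.87). CRC culture 1 lay within the range of the cancers, CRC culture 2 above it and both EpiC cultures below it. The close copies Saa1 and Saa2 were low, with Saa1 at 4.85 and 14.2 and Saa2 at 1.43 and 4.81 in the CRC cultures and both at most 0.508 in EpiC.

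Iron- and haem-binding members followed. Haptoglobin (Hp), which binds free haemoglobin, stood at 222 and 909 FPKM in CRC, 0.647 and 11.2 in EpiC and 622 and 33.6 in the cancers. Lipocalin 2 (Lcn2), which holds bacterial iron carriers, stood at 1816 and 2355 in CRC, 50.5 and 617 in EpiC and 7890.1 and 224 in the cancers. Ceruloplasmin (Cp), a copper-bearing ferroxidase, stood at 360.4 and 205 in CRC, 37.9 and 191 in EpiC and 944 and 20.9 in the cancers, where the lower CRC value and the higher EpiC value were close. In all of these the EpiC culture of cancer 1 had the lowest value of the 4 cultures. Lbp, which hands bacterial lipopolysaccharide to its receptor, stood at 37.5 and 9.03 in CRC and 0.254 and 5.09 in EpiC, and the pentraxin Ptx3, a soluble pattern-recognition protein, at 3.37 and 2.62 in CRC and 0.0573 and 0.61 in EpiC. Slpi, a secreted inhibitor of leukocyte proteases, stood at 604 and 4645 in CRC and 16.4 and 415 in EpiC. Complement C3 was the member whose groups overlapped, at 289.6 and 81.5 in CRC and 33.8 and 196 in EpiC.

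Some genes outside the list were also higher in both CRC cultures. Pglyrp1, a peptidoglycan-recognition protein, stood at 319.7 and 384 FPKM in CRC, 8.15 and 9.01 in EpiC and 235 and 31.4 in the cancers (log2 difference 5.20, SE 0.90). Spink8, a Kazal-type protease inhibitor, stood at 9.9 and 10.9 in CRC and was listed at 0 in both EpiC cultures. It passed the filter only through the CRC cultures. The following genes were chosen after their values were seen. S100a8, a subunit of calprotectin, stood at 129 and 113 in CRC, 5.24 and 15.4 in EpiC and 133 and 630.0 in the cancers. S100a9, the other subunit, stood at 19.8 and 15.6 in CRC, 0.466 and 1.6 in EpiC and 115 and 814 in the cancers. For both, the cancers were highest and the EpiC cultures lowest. Lrg1, a leucine-rich plasma glycoprotein, stood at 5.23 and 8.64 in CRC and 0 and 0.0445 in EpiC, and Wfdc3, of the same protein family as Slpi, at 125 and 89.8 in CRC and 0.24 and 5.19 in EpiC. The transcription factor Cebpb stood at 49.7 and 254 in CRC and 8.76 and 37.2 in EpiC, and its relative Cebpd at 25.7 and 48.4 in CRC and 0.431 and 6.93 in EpiC. Neither overlapped. Socs3, a STAT3 target that feeds back on cytokine signalling, stood at 28.3 and 20.4 in CRC and 13.2 and 14.6 in EpiC, and Stat3 itself overlapped, at 107 and 24.9 in CRC and 22.7 and 54.4 in EpiC. S100a8 and S100a9 are also neutrophil genes, and their part in the other values was not tested.

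**Figure D3:**
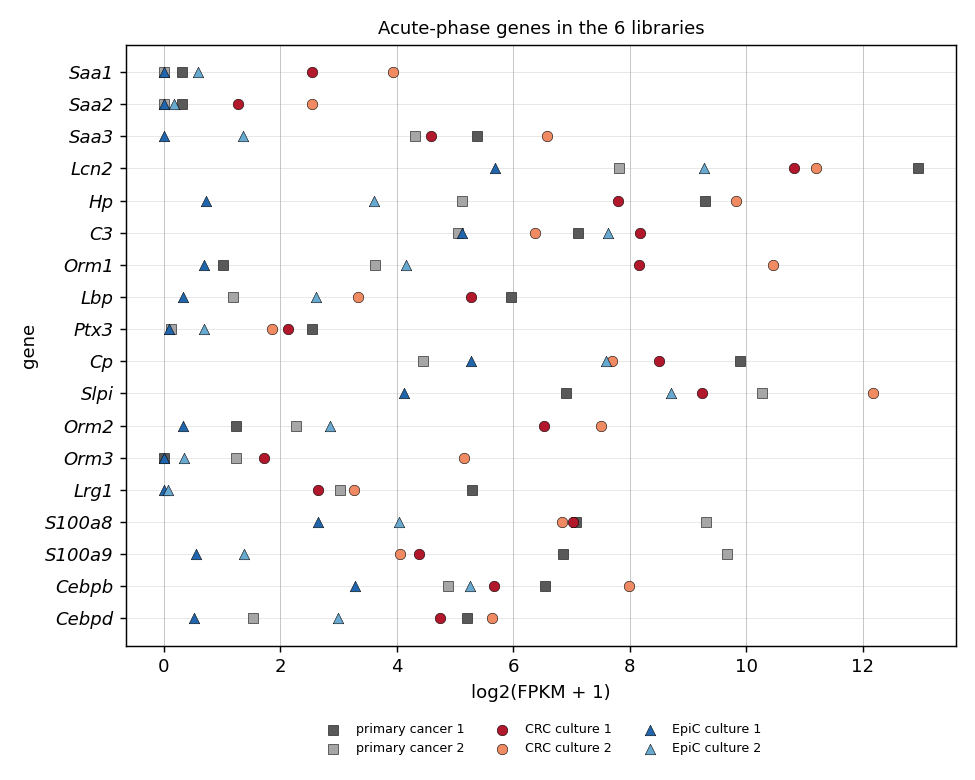
Log2(FPKM + 1) of the 11 tested acute-phase genes and of 7 genes chosen after their values were seen, each point 1 of the 6 libraries, with colours for primary cancers, CRC and EpiC. Orm1, Orm2 and Hp show wide gaps between the CRC and EpiC points, and those of C3 overlap.

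The stretch before the start of these genes was read for short motifs, because the members lay together and the families that act on them are known. Of the 11 tested members 8 had a promoter in the RefSeq table (GRCm38.p6). The C/EBP motif TTGCNNAA, on either strand, occurred in the 250 bases before the start of all 8, against 818 of 9004 tested genes with a promoter (9.08%) and 3142 of 32851 promoters in all (9.56%). With Orm2, Orm3 and Lrg1, added after their values were seen, 10 of 11 held it, all but Lrg1. The STAT motif TTCNNNGAA occurred in 0 of the 8 and in 7.25% of tested genes, and the NF-kB motif (GGG, any 2 bases, TT, any base, CC) in 0 of the 8 and in 5.73%. A match is a run of letters and not a shown binding site, and a missing match says only that these letters are absent from the window. Genes of this kind are known to be switched on by C/EBP factors, so the share describes the list and not the cultures. The 8 include the close copies Saa1, Saa2 and Saa3, and also C3, whose groups overlapped. Whether C/EBP factors had a part in the differences was not tested. The 3 sequences below are shown as examples from different families, from chr7:46715677-46715926 (reverse strand) for Saa3, chr4:63362199-63362448 (forward) for Orm2 and chr2:32387740-32387989 (reverse) for Lcn2, each ending at the base before the start, with the C/EBP match in capitals. The match lies 99 to 92 bases before the start in Saa3, 120 to 113 in Orm2 and 216 to 209 in Lcn2.
Saa3: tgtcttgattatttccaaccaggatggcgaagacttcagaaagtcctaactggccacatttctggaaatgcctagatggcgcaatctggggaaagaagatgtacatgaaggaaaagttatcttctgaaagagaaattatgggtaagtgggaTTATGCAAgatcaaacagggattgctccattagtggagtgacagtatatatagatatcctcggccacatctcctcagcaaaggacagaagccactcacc
Orm2: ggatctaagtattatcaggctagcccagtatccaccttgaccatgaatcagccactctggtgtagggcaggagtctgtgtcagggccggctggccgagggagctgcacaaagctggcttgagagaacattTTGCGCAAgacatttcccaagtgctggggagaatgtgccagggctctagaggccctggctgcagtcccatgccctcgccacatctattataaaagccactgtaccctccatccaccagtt
Lcn2: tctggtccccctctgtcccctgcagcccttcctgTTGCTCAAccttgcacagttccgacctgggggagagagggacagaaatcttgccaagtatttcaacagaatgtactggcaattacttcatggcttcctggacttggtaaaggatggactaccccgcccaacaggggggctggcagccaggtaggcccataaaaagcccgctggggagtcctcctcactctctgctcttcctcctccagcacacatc

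Squamous genes were also higher in CRC, with most of the size in cancer 2. Of 32 genes in the list 22 were tested, and the other 10 were at or below 4.405 FPKM in every library. Both CRC cultures lay above both EpiC cultures in 12 of 22 (54.5%) and below in 0, and 17 were higher in CRC in both cancers, against 23% of all tested genes. The median log2 difference was 2.19, with 1.01 in cancer 1 and 3.80 in cancer 2. Without CRC culture 2, CRC culture 1 lay above both EpiC cultures in 14 (63.6%) and below in 2 (9.09%). In that setting 38.3% of all tested genes lay above and 22.8% below. The list median was then 1.04. No member passed the adjusted threshold by limma, and 7 had an unadjusted p under 0.05.

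Genes of the cornified layers were among those of smallest p. Dmkn (dermokine), a secreted protein of the upper epidermis, stood at 44.3 and 230.1 FPKM in CRC, 0.215 and 0.982 in EpiC and 5.93 and 2.24 in the cancers, a log2 difference of 6.04 (SE 0.89, adjusted p 0.489 by limma). Sbsn (suprabasin) stood at 95.9 and 285 in CRC and 3.74 and 19.98 in EpiC, and the kallikrein protease Klk6 at 42.1 and 281 in CRC and 5.13 and 1.52 in EpiC. Each had CRC values above those of both EpiC cultures and both cancers. Krtdap, a keratinocyte differentiation protein, stood at 3.3 and 178 in CRC and 0 and 0.102 in EpiC, and involucrin (Ivl), a scaffold of the cornified envelope, at 2.04 and 4.24 in CRC and 0.0572 and 0.104 in EpiC. Krt6b, a keratin of activated keratinocytes, stood at 1.53 and 14.8 in CRC and 0 and 0.113 in EpiC. The level in CRC culture 2 was many times that in CRC culture 1 for Krtdap and Krt6b. Krt16, its usual partner keratin, stood at 7.1 and 218 in CRC and 2.75 and 7.9 in EpiC, the envelope protein Sprr1a at 1.05 and 47.1 in CRC and 8.15 and 0.873 in EpiC, and the checkpoint protein Sfn (14-3-3 sigma) at 40.1 and 498 in CRC and 60.8 and 28.2 in EpiC. In these 3 genes CRC culture 1 lay within the EpiC range and CRC culture 2 far above it. The galectin Lgals7 did not overlap, at 84 and 891 in CRC and 17.2 and 2.28 in EpiC, while Ly6d, a surface protein of squamous cells, overlapped by a narrow margin at 10.8 and 120.3 in CRC and 0 and 11.8 in EpiC. The serpin Serpinb5 (maspin) had a smaller gap, at 54.4 and 51.2 in CRC and 30.1 and 31.7 in EpiC.

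The basal keratins were higher in the CRC cultures, and Krt5 was near 0 in both EpiC cultures. Krt5 stood at 24 and 917 FPKM in CRC, 0.198 and 0.193 in EpiC and 7.3 and 1.2 in the cancers, a log2 difference of 6.99 (SE 1.58). Krt14, its partner, stood at 291 and 2728 in CRC, 14.1 and 142 in EpiC and 48.6 and 195 in the cancers, and Krt17 at 16.9 and 418 in CRC, 3.2 and 1.88 in EpiC and 12.8 and 319.5 in the cancers. For each of these keratins both CRC cultures exceeded both EpiC cultures, and CRC culture 2 had the highest value of the 6 libraries. Trp63, which sets basal identity, stood at 2.97 and 3.94 in CRC and 0.0112 and 1.53 in EpiC, and Col17a1, a hemidesmosome collagen, at 1.27 and 21 in CRC and 0.377 and 0.00489 in EpiC. The smooth-muscle actin gene Acta2, a marker of myoepithelium and of fibroblasts, stood at 0.718 and 12.7 in CRC and 0.0623 and 0.14 in EpiC. Over the list of 22 genes, 17 were tested, 10 of 17 had both CRC cultures above both EpiC cultures (58.8%) and 0 below, and the median difference was 1.47, with 0.52 in cancer 1 and 1.49 in cancer 2. Without CRC culture 2 the count was 11 above (64.7%) and 1 below (5.88%), against 38.3% and 22.8% of all tested genes, with a median of 0.64. The members' median length was 3662.5 bases, a length at which CRC culture 2 was low against EpiC over all genes, and with the length trend removed the count was 10 of 17.

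**Figure D4:**
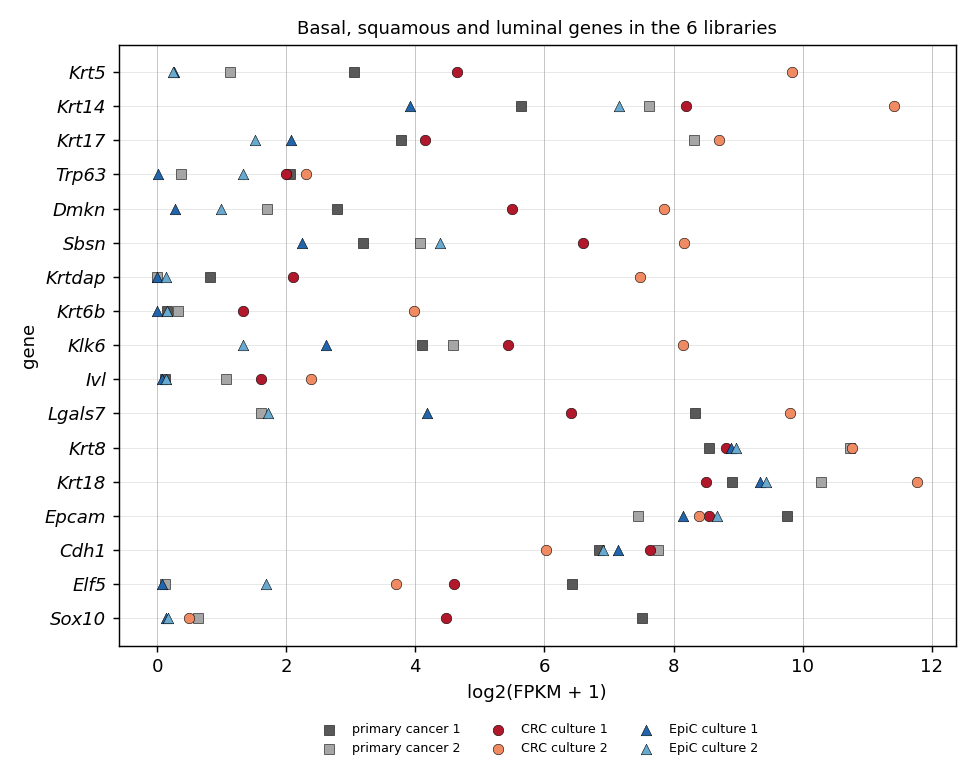
Log2(FPKM + 1) of basal, squamous and luminal genes in the 6 libraries, each point 1 library, with colours for primary cancers, CRC and EpiC. Krt5 and Dmkn lie near 0 in both EpiC cultures and higher in both CRC cultures, while the points of Krt8, Krt18 and Cdh1 overlap between the methods.

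Luminal genes were less separated. Of 20 tested members 7 had both CRC cultures above both EpiC cultures (35%) and 1 below, with a median of 0.62. Without CRC culture 2 the counts were 10 (50%) and 6 (30%), against 38.3% and 22.8% of all tested genes. The median was then 0.06, against 0.10 over all tested genes. Krt8 stood at 451 and 1729.7 FPKM in CRC and 475 and 498 in EpiC, so the groups overlapped. Single members are given by value. Elf5, which drives alveolar differentiation, stood at 23.3 and 12.1 in CRC, 0.0512 and 2.21 in EpiC and 84.8 and 0.0912 in the cancers, and Ehf, a related ETS factor, at 72.8 and 18.2 in CRC, 2.92 and 11.1 in EpiC and 99 and 4.66 in the cancers. Sox10 stood at 21.4 and 0.413 in CRC, 0.0981 and 0.122 in EpiC and 182 and 0.558 in the cancers. For Elf5 and Sox10 the first cancer was far above the second, and CRC culture 1 lay above CRC culture 2. In cancer 2 Sox10 was under 1 FPKM by either method. The stem and progenitor surface antigen Ly6a (Sca-1) stood at 1582 and 2310.1 in CRC and 104 and 781 in EpiC. Foxa1, a factor of hormone-sensing luminal cells, was the member below, at 0.121 and 0.12 in CRC and 5.2 and 1.04 in EpiC, and Gata3, a luminal master factor, was close in cancer 1, at 16.4 and 29.7 in CRC and 16.1 and 16.1 in EpiC. Kit, the progenitor receptor, stood at 80.3 and 1.03 in the cancers and under 0.1 FPKM in every culture. The milk genes of cancer 1 were low in all cultures: Csn1s1, a casein, stood at 9143 and 2.49 in the cancers, 7.22 and 5.1 in CRC and 2.81 and 1.86 in EpiC.

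Junction genes differed little. Over 28 tested adhesion genes both CRC cultures lay above both EpiC cultures in 6 (21.4%) and below in 2, with a median of 0.15, and with common sums of FPKM in 1 and 4 with a median of -0.41, so the direction depends on the scaling. Cdh1 (E-cadherin) stood at 198 and 64.3 FPKM in CRC and 139.9 and 119 in EpiC and overlapped. The claudin Cldn1 stood at 24.5 and 21.2 in CRC and 0.875 and 10.7 in EpiC, and the membrane protease St14 at 143 and 148 in CRC and 62.2 and 68 in EpiC; both had no overlap, with the EpiC values lower.

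The summed level of fibroblast genes was lower in all 4 cultures than in the cancers. Of 22 tested fibroblast genes 10 had both CRC cultures above both EpiC cultures (45.5%) and 1 below, with a median of 0.26. Their summed levels were 745 and 484 FPKM in the cancers, 108 and 123 in CRC and 91.6 and 57.1 in EpiC. Col1a1, the main fibrillar collagen, stood at 0.595 and 3.99 in CRC, 0.296 and 0.478 in EpiC and 68.4 and 36.2 in the cancers. Bgn (biglycan), a matrix proteoglycan, stood at 2.12 and 10.6 in CRC, 0.045 and 0.351 in EpiC and 65.6 and 66.8 in the cancers, and Thbs2, a matricellular protein, at 3.86 and 1.57 in CRC, 0.301 and 0.0402 in EpiC and 16.4 and 16.5 in the cancers. The CRC values were above EpiC and well below the cancers in these genes. The most abundant members overlapped between the methods. Fbln2, a matrix fibulin, stood at 43 and 49.2 in CRC, 50.6 and 36.9 in EpiC and 77.5 and 122 in the cancers, and Pcolce, which aids procollagen processing, at 9.32 and 16.3 in CRC, 22.4 and 8.47 in EpiC and 102 and 17.9 in the cancers. Whether this RNA came from feeder cells, from fibroblasts of the cancer or from the cancer cells was not tested, and in bulk RNA fewer cells of a type and less RNA per cell cannot be told apart. Within the mesenchymal list, 4 of 22 lay above and 2 below, with a median of 0.26. The list median was -0.11 in cancer 1 and 0.01 in cancer 2. Msn (moesin), an abundant member, overlapped at 321 and 46.8 in CRC and 491 and 165 in EpiC, and was lower in CRC in each cancer. S100a4, a calcium-binding protein of motile cells, stood at 278 and 490.3 in CRC and 90.5 and 92.7 in EpiC, and the factor Twist1 at 2.18 and 5.62 in CRC and 0 and 0.233 in EpiC. The receptor kinase Axl was lower in CRC, at 32.7 and 34.1 in CRC and 86.9 and 67.6 in EpiC.

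Mitotic genes were mostly lower in CRC, with a median difference of -0.24 in cancer 1 and -0.75 in cancer 2. Of 23 mitotic genes 0 lay above and 2 below (8.70%), and 19 were lower in CRC in both cancers, against 31.3% of all tested genes, with a median of -0.56. Without CRC culture 2 the median was 0.08, against 0.10 over all tested genes. In that setting 0 lay above both EpiC cultures and 4 below (17.4%), against 38.3% and 22.8% of all tested genes. Mki67, a proliferation marker, stood at 38.7 and 20.4 FPKM in CRC, 45.6 and 24.5 in EpiC and 16.2 and 14.1 in the cancers. Ccnb1, the mitotic cyclin, stood at 92.3 and 47.4 in CRC, 105 and 97.2 in EpiC and 13.4 and 26.1 in the cancers. Topoisomerase Top2a stood at 143 and 37.9 in CRC, 169 and 140.1 in EpiC and 24.9 and 64 in the cancers. The cultures of cancer 1 had higher values than the tissue for each of these genes by either method, and the methods overlapped in Mki67 and Top2a. Genes of homologous recombination, the repair pathway in which Brca1 acts, were lower in CRC in both cancers in 16 of 21. Of the 21, 1 lay above and 2 below. Their median was -0.41, with -0.24 in cancer 1 and -0.71 in cancer 2. Without CRC culture 2 it was 0.04, against 0.10 over all tested genes. The 24 replication genes had 1 above and 3 below. Of 25 tested p53 targets 4 lay above and 5 below, with a median of 0.02. Cdkn1a, the p53-induced cyclin kinase inhibitor p21, overlapped at 9.41 and 36.3 in CRC and 33.9 and 7.94 in EpiC, and Cdkn2a, the senescence locus, at 169.5 and 387 in CRC and 154 and 185 in EpiC.

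Targets of the YAP and TEAD transcription factors, which respond to cell tension and contact, were more often lower than higher in CRC. Of 21 tested 1 lay above and 6 below (28.6%, against 11.7% of all tested genes), with a median of -0.77. It was -0.44 in cancer 1 and -0.96 in cancer 2. Without CRC culture 2 the median was -0.03, against 0.10 over all tested genes. In that setting 6 lay above (28.6%) and 9 below (42.9%), against 38.3% and 22.8% of all genes. Ctgf (Ccn2) stood at 131 and 83.6 FPKM in CRC and 206 and 144 in EpiC, and Ajuba, a LIM protein of junctions, at 11.9 and 13.2 in CRC and 26.6 and 26.9 in EpiC. Both had no overlap. The targets Cyr61, at 138 and 355 in CRC and 404 and 289 in EpiC, and Ankrd1, at 48 and 139.6 in CRC and 212 and 138 in EpiC, overlapped. The kinases that the inhibitor used in conditional reprogramming acts on were close in cancer 1 and lower in CRC in cancer 2: Rock1 stood at 21.4 and 2.78 in CRC and 25.2 and 15.1 in EpiC, and Rock2 at 29.3 and 5.14 in CRC and 42.4 and 25.7 in EpiC. Among 25 tested genes of actin, ROCK and SRF, 4 lay above and 2 below, with a median of -0.10.

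Of 11 tested genes of ErbB receptors and ligands 4 lay below (36.4%, against 11.7% of all tested genes) and 1 above. Btc (betacellulin) stood at 1.99 and 0.313 FPKM in CRC and 6.56 and 5.55 in EpiC, Hbegf at 24.5 and 27.9 in CRC and 133 and 39.5 in EpiC, and their receptor gene Egfr at 11.1 and 6.43 in CRC and 17.9 and 13 in EpiC. All 3 were lower in both CRC cultures than in either EpiC culture. Areg, with Hbegf 1 of the 2 most abundant members, overlapped, at 29.8 and 46.8 in CRC and 37.4 and 48.4 in EpiC. The median of the list was -0.18, with -0.32 in cancer 1 and -0.49 in cancer 2. CRC culture 1 lay above both EpiC cultures in 4 members and below in 5. Dusp5, a phosphatase induced by and acting on ERK, stood at 8.44 and 3.94 in CRC, 69.6 and 28.2 in EpiC and 20.4 and 29.5 in the cancers (log2 difference -2.73, SE 0.65). In the TGF-beta list 4 of 22 lay above (18.2%, near the 14.5% of all genes) and 6 below (27.3%, against 11.7%). The median was 0.17, with 0.33 in cancer 1 and -0.69 in cancer 2. CRC culture 1 lay above both EpiC cultures in 11 and below in 6, against 38.3% and 22.8% of all genes. Of the 2 most abundant members Id3 lay above, at 62.9 and 147 in CRC and 23 and 52.7 in EpiC. The other, Ltbp3, lay below, at 44.4 and 24.2 in CRC and 74.6 and 44.7 in EpiC. Ltbp2, a matrix protein related to TGF-beta carriers, stood at 7.15 and 4.78 in CRC and 21.7 and 27.5 in EpiC, the pathway's inhibitor Smad7 at 10.04 and 5.28 in CRC and 22.1 and 15.2 in EpiC, and the activin subunit Inhba at 16.2 and 4.69 in CRC and 63.9 and 22 in EpiC. Id1, a target of BMP signals, was on the other side, at 52.5 and 82.9 in CRC and 14.2 and 21.4 in EpiC. Of 15 Wnt genes 2 lay above and 3 below. The ligand Wnt10a stood at 9.43 and 16.7 in CRC and 33.4 and 36.1 in EpiC, and the ligand Wnt7a at 4.17 and 6.54 in CRC and 22.6 and 20.05 in EpiC. The secreted antagonist Sfrp1 stood at 33 and 16.4 in CRC and 0.708 and 8.51 in EpiC. These 3 genes were chosen after their values were seen. The most abundant ligand, Wnt7b, overlapped, at 55.1 and 119 in CRC and 81.5 and 76.4 in EpiC, and over the list 6 genes were higher and 4 lower in CRC in both cancers, with a median of 0.32. Of 13 Notch genes 1 lay above, namely the target Hes1 at 46.1 and 215 in CRC and 33.5 and 17.9 in EpiC, and 1 below.

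Of 24 matrix proteases and inhibitors 7 lay above (29.2%, against 14.5% of all genes) and 4 below (16.7%, against 11.7%). Mmp7 (matrilysin), an epithelial metalloprotease, stood at 22.8 and 16.6 FPKM in CRC, 0 and 2.54 in EpiC and 0.574 and 0 in the cancers. It passed the filter only through the CRC cultures. Serpine2, an inhibitor of thrombin and urokinase, stood at 127 and 26.4 in CRC, 4.65 and 4.57 in EpiC and 126 and 68.2 in the cancers. Mmp9 (gelatinase B) stood at 0.146 and 0.188 in CRC and 11.4 and 10.3 in EpiC, and Plau (urokinase) at 29.8 and 25.6 in CRC and 334 and 89.9 in EpiC. So Mmp7 and Serpine2 were higher and Mmp9 and Plau lower in CRC. Npnt (nephronectin), a basement-membrane ligand of integrins, had a small p among protein-coding genes lower in CRC, at 2.74 and 1.05 in CRC, 36.5 and 13.4 in EpiC and 9.1 and 12.8 in the cancers (log2 difference -3.07, SE 0.68). Of 20 tested integrins and laminins 4 lay above and 0 below, but 10 were lower in CRC in both cancers and 5 higher in both, with a median of -0.35.

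Other genes of smallest p lower in CRC were Rabggtb, a subunit of Rab geranylgeranyl transferase, at 105 and 36.7 FPKM in CRC, 4839.9 and 1933 in EpiC and 587 and 4204 in the cancers, and Tnrc6b, a partner of Argonaute in miRNA silencing, at 2.89 and 0.641 in CRC, 125 and 59.6 in EpiC and 3.82 and 71.6 in the cancers. For both genes the CRC values were also below those of the cancers, narrowly so for Tnrc6b in cancer 1. The uncharacterised gene 4930515B02Rik stood at 2.9 and 3.63 in CRC and 24.1 and 12.7 in EpiC, and the predicted gene Gm13031 at 0.653 and 0.221 in CRC and 9.98 and 4.94 in EpiC. Genes of smallest p higher in CRC also included the potassium channel Kcnj15, at 7.16 and 8.23 in CRC and 0.0102 and 0.29 in EpiC. Kcnj15 passed the filter only through the CRC cultures, and Gm13031 only through the EpiC cultures. Some further genes higher in EpiC were chosen after their values were seen. Rgs16, which ends G-protein signals, stood at 23.8 and 26 in CRC and 435 and 176 in EpiC, the R-spondin receptor Lgr6 at 1.53 and 0.245 in CRC and 20.5 and 4.93 in EpiC, and the serine/threonine kinase Pim1 at 13.2 and 2.06 in CRC and 23.9 and 42.1 in EpiC.

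Respiratory genes lay higher in CRC culture 2. Of 25 genes of oxidative phosphorylation 10 lay above (40%) and 1 below, with a median of 0.76, made up of 0.18 in cancer 1 and 1.26 in cancer 2. Their median transcript length was 659 bases, the range in which CRC culture 2 was high over all genes. Without that library 10 lay above (40%) and 9 below (36%), against 38.3% and 22.8% of all tested genes, with a median of 0.08. With the length trend removed 8 lay above and 1 below, and with common sums of FPKM 3 and 4. Ndufa4, a subunit of the respiratory chain, stood at 1282 and 4139.8 FPKM in CRC and 944 and 1253 in EpiC. Of 24 glycolysis and hypoxia genes 9 lay above (37.5%) and 2 below, with a median of 0.46, and with common sums of FPKM 2 lay above and 5 below with a median of -0.17. Pkm (pyruvate kinase) stood at 2410.0 and 2367 in CRC and 1345 and 1221 in EpiC, and Ldha (lactate dehydrogenase A) at 1817 and 1547 in CRC and 1464 and 1087 in EpiC. In both genes both CRC values were above the EpiC values. Egln3, an oxygen-sensing prolyl hydroxylase, stood at 10.1 and 6.87 in CRC and 0.557 and 0.30 in EpiC. Vegfa, the endothelial growth factor, lay the other way, at 39.2 and 13.4 in CRC and 64.9 and 63.6 in EpiC. Cholesterol synthesis had 2 of 22 above and 5 below, with Insig1, a sterol sensor, at 38 and 20.8 in CRC and 73.9 and 80.3 in EpiC. Prdx1, a peroxiredoxin of the NRF2 list, stood at 1073 and 1402 in CRC and 478 and 555 in EpiC, and it was the 1 of 17 members that lay above.

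Of 17 tested cytokines and chemokines 3 lay above (17.6%, near the 14.5% of all genes) and 5 below (29.4%, against 11.7%). The neutrophil attractant Cxcl2 stood at 27.4 and 55.5 FPKM in CRC and 8.34 and 12.2 in EpiC, and the monocyte attractant Ccl2 at 10.04 and 15.6 in CRC and 0.572 and 7.27 in EpiC. The cytokine Lif, of the interleukin-6 family, stood at 27.1 and 21.3 in CRC and 83.8 and 34.4 in EpiC, and the interferon-induced Cxcl10 at 15.2 and 3.16 in CRC and 38.5 and 25.7 in EpiC. Cxcl2 and Ccl2 were higher and Lif and Cxcl10 lower in both CRC cultures. The 2 most abundant members overlapped. Cxcl1 stood at 304 and 143 in CRC and 183 and 187 in EpiC, and Cxcl5 at 213 and 97.3 in CRC and 18.5 and 277 in EpiC. The list median was 0.17 in cancer 1 and -0.38 in cancer 2. Of 27 interferon response genes 2 lay above and 4 below, with medians of 0.37 in cancer 1 and -1.09 in cancer 2. Ifit2, an antiviral RNA-binding protein, stood at 8.93 and 0.968 in CRC and 24.5 and 14 in EpiC, while the ubiquitin-like Isg15 stood at 281 and 173 in CRC and 147 and 116 in EpiC. Of 17 antigen presentation genes 4 lay above (23.5%) and 1 below, with a median of 0.31. Without CRC culture 2 the counts were 15 (88.2%) and 2 (11.8%), against 38.3% and 22.8% of all tested genes, with a median of 1.09. With common sums of FPKM the median was -0.06, so its sign depends on the scaling. The class I gene H2-K1 stood at 643 and 308 in CRC and 389 and 185 in EpiC and overlapped. The class II gene H2-Ab1 stood at 199 and 125 in the cancers, 9.76 and 4.71 in CRC and 0.995 and 0.362 in EpiC.

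The same methods were compared in 3 pairs of mammary cultures of the series, which were normalised in another table. The CYP19A1 pair carried an inducible aromatase transgene (Tet-op-CYP19A1 with MMTV-rtTA), the Brca1het pair 1 conditional Brca1 allele, as in the cancers, and the Brca1hom pair 2, all with MMTV-Cre and 1 mutant Trp53 allele. There limma called 2741 of 11837 genes (23.2%), 1352 higher (11.4%) and 1389 lower (11.7%) in CRC. The 2 comparisons share no libraries, and the values are given side by side. Of 1190 genes called higher in the mammary CRC cultures and tested here, 338 were higher in CRC in both cancers (28.4%) and 328 lower in both (27.6%), against 22.6% and 32.6% of the 10882 genes tested in both tables. Of 1163 called lower, 282 were higher (24.2%) and 354 lower (30.4%). Basal and squamous genes lay the same way. The basal list had a median of 0.52 and 1.49 in the cancers and 2.55, 2.72 and 5.98 in the mammary pairs, and the squamous list 0.91 and 3.77 against 3.59, 3.64 and 5.94. Krt5 differed by 6.99 here and by 10.80 there. The acute-phase list lay the opposite way, with medians of 4.58 and 2.37 in the cancers and -3.98, -1.20 and -3.75 in the mammary pairs. Saa3 differed by 4.90 here and by -9.53 there, and Orm2 by 5.42 and -1.86, while Slpi was higher in CRC in both tables, by 4.30 and 3.58. Fibroblast genes had medians of 0.19 and 0.76 in the cancers and -4.91, -4.91 and -4.94 in the mammary pairs, where 20 of 22 were called lower in CRC. Col1a1 differed by 1.03 here and by -7.09 there. The luminal and adhesion medians of the Brca1hom pair were 3.19 and 5.18. These and its basal and squamous medians, 5.98 and 5.94, stand beside an EpiC culture low in epithelial transcripts. In it Krt8, Epcam and Krt14 were at 0.275, 0.208 and 1.73 FPKM. No test of the difference between the tables was made.

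**Figure D5:**
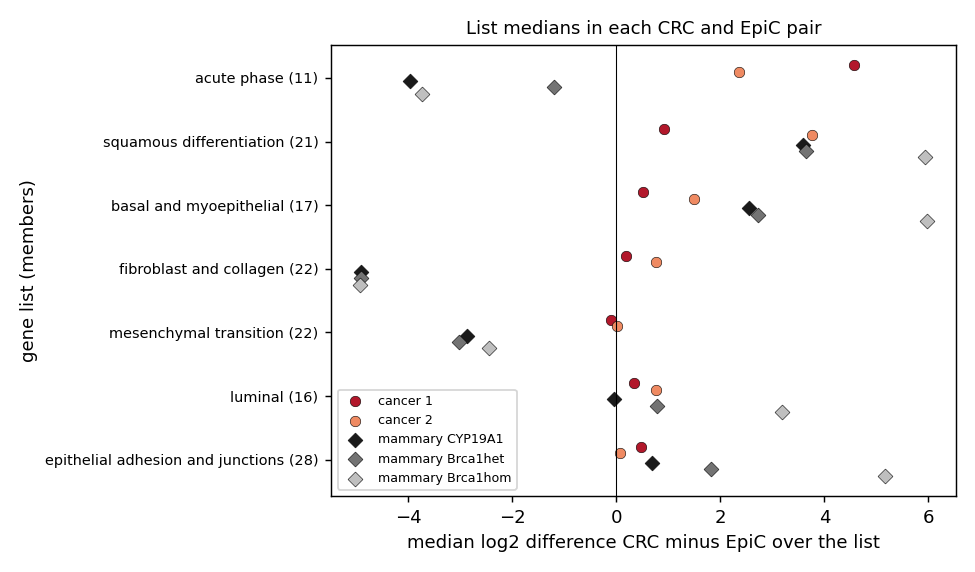
Median log2 difference between the CRC and the EpiC culture over the members of 7 gene lists (y axis, members tested in both tables), with circles for the 2 cancers and diamonds for the 3 mammary pairs. The acute-phase circles lie to the right of 0 and its diamonds to the left, and the fibroblast diamonds lie near -4.91 with the circles at 0.19 and 0.76.

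The cultures were also set beside the cancers by level. The correlation over genes of log2(FPKM + 1) with cancer 1 was 0.770 for its CRC culture and 0.719 for its EpiC culture, and with cancer 2 it was 0.710 and 0.804. By this measure the CRC culture was nearer the tissue in cancer 1 and the EpiC culture in cancer 2. The order in cancer 2 rests on the unusual CRC culture 2, so it cannot be told apart from a trait of that library. Both cultures of cancer 1 were nearer to cancer 2, at 0.788 for CRC and 0.80005 for EpiC, than to their own cancer. There were 243 genes at 10 FPKM or more in cancer 1 and under 1 in cancer 2, of which 149 reached 1 FPKM in CRC culture 1, 119 in CRC culture 2, 104 in EpiC culture 1 and 111 in EpiC culture 2. CRC culture 1 exceeded CRC culture 2 in 144 of them, and EpiC culture 1 exceeded EpiC culture 2 in 111. Of the 98 genes with the reverse pattern, 49, 38, 58 and 55 reached 1 FPKM in these cultures in the same order.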

How the data were processed

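The data were 6 poly(A) RNA-seq libraries: 2 primary cancers, 2 CRC cultures and 2 EpiC cultures, numbered by cancer in the titles. The deposited values are FPKM; reads were aligned with TopHat to mm9 and quantified with Cufflinks after FastQC and Trim Galore, per the submitters' processing notes, with no versions. Neither an annotation nor a scaling step is stated there. Of the values above 0, 51.5% had over 6 digits and 97.2% of those ended in 5, so a value may be a mean of repeat runs. Depth cannot be read from FPKM, and depth limits on low values are unknown.

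The 407 entries that shared a symbol were summed, giving 23490 symbols. The 3 groups entered 1 limma model (version 3.58.1, R 4.3.3; lmFit, eBayes with trend), with log2(FPKM + 1) as the response, for genes averaging 1 FPKM or more; this scale understates differences of low genes. A call meant an adjusted p (Benjamini-Hochberg) under 0.05. No pair among 15 pairs of libraries was identical. Same-numbered CRC and EpiC cultures come from the same cancer per the titles, and their deviations from the group means correlated at 0.242. The test was checked on simulated data. Transcript lengths came from the GENCODE M21 annotation for 90.2% of tested genes, and promoters and miRNAs from RefSeq by symbol; all 4 miRNA genes looked up matched. Gene lists and the genes in them were chosen with earlier results of these data known. Named genes were the study markers and called genes with a mean of 5 FPKM or more on the higher side. The 12 of smallest p in each direction and the 2 most abundant of each list were added. Others, list members included, were chosen after their values were seen. A few genes that this rule takes are not reported here.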

Additional observations from a re-analysis of the deposited data

Results flagged for a closer look

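In the following results the cancers and the mammary cultures of the series moved opposite ways in every pair, in tables normalised separately, and the difference between them was not tested. Values are CRC minus EpiC on the log2(FPKM + 1) scale. Saa3 stood at 4.90 in the cancers and -9.53 in the mammary cultures, and Orm2 at 5.42 and -1.86. The median of the acute-phase list was 2.94 and -2.97 (members tested in both tables). The fibroblast list had a median of 0.26 and -4.92. Rabggtb was at -5.60 and 0.56, and Brca1 at -0.91 and 0.21. For Brca1 the pairs were small save in cancer 2: -0.14 in cancer 1, -1.69 in cancer 2, and 0.46, 0.09 and 0.07 in the mammary cultures. Without CRC culture 2 the Brca1 value was -0.04. The median of the mitotic list was -0.56 and 0.52, that of the homologous recombination list -0.41 and 0.26, and that of the antigen presentation list 0.31 and -0.45. Over all tested members and without CRC culture 2, which sets CRC culture 1 against both EpiC cultures, these last medians were 0.08, 0.04 and 1.09. Between the matched cultures they were -0.24, -0.24 and 0.60 in cancer 1 and -0.75, -0.71 and 0.22 in cancer 2.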

How the results depend on the processing

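The 1 gene called by limma became 5 with a pseudocount of 0.1, 0 with no filter (382 genes at an unadjusted p under 0.05), 5 with a filter at 5 FPKM, 3 with median-ratio rescaling and 0 with common sums of FPKM (156 at an unadjusted p under 0.05). With the cancer as a replicate block limma called 0 genes (238 at an unadjusted p under 0.05), and 0 with the block and median-ratio rescaling (241). The 4 cultures alone gave 4 calls, and leaving out genes listed at 0 gave 0 (185). Added after seeing the data, length correction gave 0 (230) and leaving out small RNA entries 0 (202). These last 3 settings leave out Mir186 by construction, length correction because small RNA entries have no length. Leaving out 1 library at a time gave 0 to 12 calls: 12 without CRC culture 1, 4 without EpiC culture 2, 1 without cancer 2 and 0 without each of the others. Mir186 was among the 12 only. It lost its call in 9 of the 14 alternatives that included it. In the mammary cultures the 2741 calls became 159 to 2091 without 1 library, and 3557 with no replicate block. Trp53, at -0.07, reversed to 0.080 with median-ratio rescaling, with or without the block, and lay between -0.33 and 0.19 without 1 library, with 0.19 where CRC culture 1 was left out. Erbb2, at 0.15, reversed to -0.45 with common sums of FPKM, and lay between -0.32 and 0.61 without 1 library, with -0.32 where EpiC culture 1 was left out. The cause was not tested. All 9 values of single genes that lost a call were of Mir186. The other genes had no call to lose, 11 of their values gained one, and 38 of 40 kept 1 sign throughout.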
